A study of Mus musculus with 9 samples.

Results

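The genes described here encode the enzymes and transporters that carry glucose through glycolysis to lactate, the enzymes of the pentose phosphate pathway, and the hypoxia-inducible factor HIF1 with its regulators and target genes. They were taken as the rows that carry 1 of 38 listed gene symbols. Of these, 37 had 1 row each among the 12474 rows of the data and all 37 passed the filter on low values, while Ldhb was not analysed here. Polyadenylated RNA was sequenced from wild-type RAW264.7 cells, a macrophage-like line of mouse origin, with 3 libraries in each of 3 groups. The group called I was polarized with 100 ng/ml lipopolysaccharide (LPS, from the bacterial outer membrane) and 50 ng/ml mouse interferon gamma with potassium iodide present at 20 mM. The group called M1 received the same LPS and interferon gamma without potassium iodide. Mock cells received none of these agents. Each group came from this 1 cell line, the time of treatment was not given in the sources used here, and no library received another salt, so the iodide, the potassium and the added osmolarity cannot be told apart. Whether libraries of 1 group are separate cultures is not stated in the labels. The p-values therefore reflect the spread among libraries, and that spread may be technical only.

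Glycolysis splits glucose into pyruvate in the cytosol. Glucose enters through transporters of the Slc2a family, is trapped by hexokinases and is committed by phosphofructokinase, and lactate leaves the cell through monocarboxylate transporters. The pentose phosphate pathway branches off at glucose 6-phosphate. Its oxidative steps make NADPH, which NADPH oxidase, nitric oxide synthase and glutathione reduction all draw on, and its non-oxidative steps exchange sugar phosphates with glycolysis. HIF1 pairs an unstable subunit, encoded by Hif1a, with the stable partner encoded by Arnt. Prolyl hydroxylases mark the unstable subunit for destruction when oxygen is present, and HIF1 binds a short DNA core in many glycolytic genes. Macrophages stimulated with LPS are known for a high glycolytic rate and for HIF1 activity at normal oxygen.

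Levels are given in FPKM, fragments scaled to gene length and library total, as deposited by the authors. Library totals recovered from those values lay between 17431069 and 25470729 fragments, so that 1 fragment on a gene of 1 kb was worth 0.0393 to 0.0574 FPKM. Log2 fold changes come from limma on log2(FPKM + 1), with p-values adjusted over the 11156 rows tested, and a gene was called at an adjusted p under 0.05. Library pairs within a group differed by more than sampling noise (mean chi-square per gene 2.03 to 3.72), so each was counted as its own library. The median of all rows tested was −0.23 in M1 against Mock, −0.07 in I against M1 and −0.30 in I against Mock on the log2 scale, and median-of-ratios scaling moved these medians to 0.02, −0.01 and 0.00. Rises made up 35.6%, 38.8% and 32.5% of the calls in these 3 comparisons with FPKM as deposited, and 50.9%, 48.3% and 50.1% with median-of-ratios scaling. In bulk RNA, fewer cells of a type and less RNA per cell cannot be told apart. All 10 macrophage markers had a row, and their summed level was 2868 to 3001 FPKM in the I libraries, 3767 to 3868 in M1 and 5095 to 5169 in Mock. None of the markers listed for fibroblasts, epithelial cells, lymphocytes, neutrophils and erythroid cells could be analysed here.

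Most of the 37 genes were higher in M1 than in Mock, and a part of them was higher still with potassium iodide. Of the 8 pentose phosphate genes, 3 were called higher in M1 than in Mock, and none was called higher in I than in M1. In M1 against Mock 23 of the 37 genes were called higher and 10 lower, and 4 were not called, with a median log2 fold change of 0.51. Over all rows tested, 85.8% were called in that comparison, 30.5% higher and 55.3% lower. With median-of-ratios scaling the split of the 37 was 30 higher and 5 lower, and that of all 11156 rows was 4870 higher and 4693 lower. In I against M1 20 were called higher, 12 lower and 5 not, with a median of 0.13, where 64.2% of all rows were called, 24.9% higher and 39.3% lower. Median-of-ratios scaling gave 22 higher and 8 lower, and 3396 higher and 3631 lower over all 11156 rows. In I against Mock 26 were called higher, 8 lower and 3 not, with a median of 0.54, where 86.8% of all rows were called, 28.2% higher and 58.6% lower. The 3 comparisons share libraries, so their values are set side by side and their agreement is not a result. Egln3 passed the filter through the I libraries alone, so its difference was favoured by the filter.

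**Figure D1:**
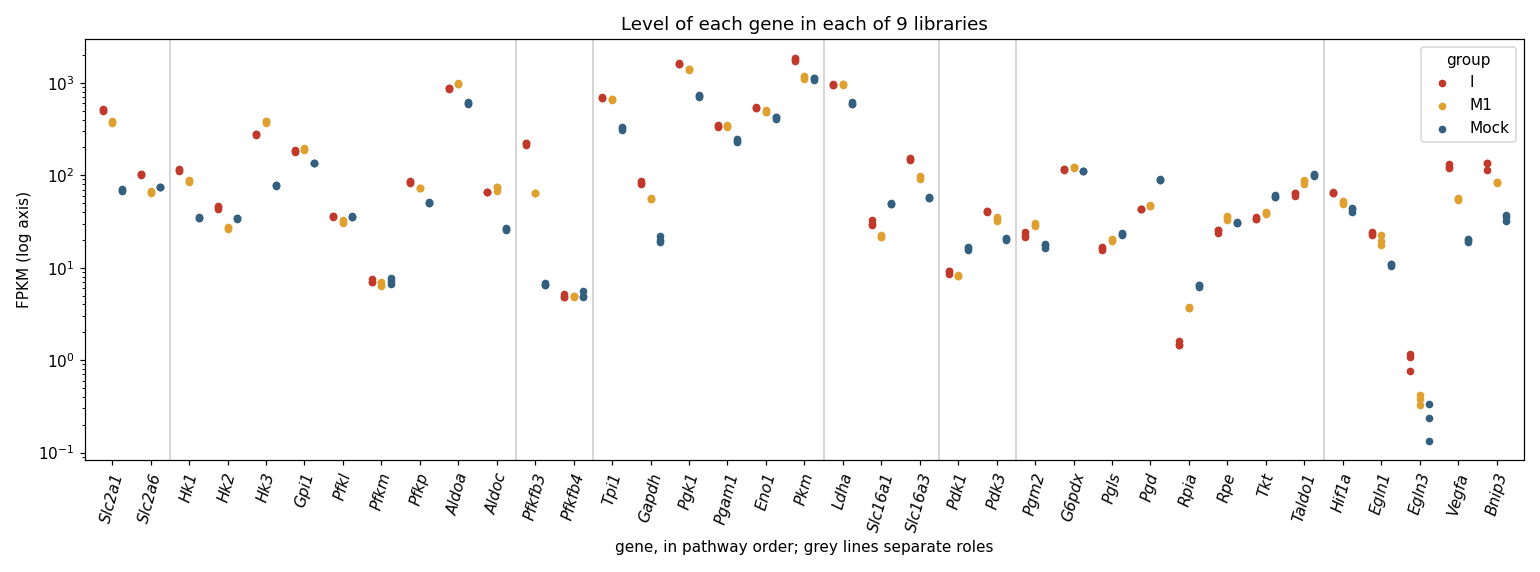
Level of each of the 37 genes in each of 9 libraries, in FPKM on a log axis, with genes in pathway order and grey lines between roles. At least 2 of the groups overlap for Pfkl, Pfkm, Pfkfb4, Pgam1, Pkm, Ldha and Egln3, and none do for the other genes.

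At glucose uptake, Slc2a1, which encodes the widely expressed glucose transporter GLUT1 (ENSMUSG00000028645.11, GRCm38 chromosome 4, 119108711 to 119137983, plus strand), was the more abundant of both glucose transporters in I and M1. It stood at 524, 500.1 and 514 FPKM in the I libraries, 364, 386 and 373 in M1 and 67.3, 70.4 and 70.1 in Mock. The 3 groups did not overlap. M1 exceeded Mock 5.41-fold (log2 fold change 2.42 ± 0.03 SE, limma adjusted p = 1.06e-13), and I exceeded M1 1.37-fold (0.45 ± 0.03 SE, limma adjusted p = 4.08e-07). Slc2a6, a family member found in leukocytes, followed another order, with 103, 103 and 101 FPKM in I, 63.6, 67.0 and 66.2 in M1 and 75.4, 75.2 and 75.1 in Mock. It was therefore highest with potassium iodide, and I exceeded M1 by 0.63 ± 0.025 SE (limma adjusted p = 8.59e-09). The small fall of Slc2a6 in M1 against Mock (−0.20) became 0.11 with median-of-ratios scaling (limma adjusted p = 0.00194) and 0.01 with upper quartile scaling (limma adjusted p = 0.708). As a share of the summed FPKM of the pair, Slc2a1 held 83.4% ± 0.39 in I, 85.1% ± 0.16 in M1 and 47.9% ± 0.67 in Mock (SD, n = 3 each).

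The 3 hexokinases, which phosphorylate glucose, differed in how they responded. Hk3, the hexokinase most typical of white blood cells (ENSMUSG00000025877.14, GRCm38 chromosome 13, 55005985 to 55021385, minus strand), was at 280.0, 274 and 280.3 FPKM in I, 368, 389.9 and 382 in M1 and 76.3, 78.7 and 78.1 in Mock. Its M1 libraries were above all the others. It exceeded Mock 4.89-fold in M1 (log2 fold change 2.27 ± 0.027 SE) and fell by 0.45 ± 0.027 SE in I against M1 (limma adjusted p = 1.75e-07). Hk1, which binds mitochondria, took the opposite course in I, with 112, 115 and 116 FPKM against 84.0, 87.2 and 89.7 in M1, and was at 34.5, 34.2 and 35.8 in Mock. Hk2, the inducible hexokinase, was at 43.5, 45.0 and 46.7 FPKM in I, 27.5, 26.0 and 26.8 in M1 and 34.4, 34.9 and 34.0 in Mock. The I libraries were thus the highest for Hk2 and the M1 libraries the lowest. I exceeded M1 by 0.73 ± 0.032 SE for Hk2 (limma adjusted p = 1.7e-08), and the difference of M1 from Mock (−0.35) was no longer called with median-of-ratios scaling (−0.05, limma adjusted p = 0.176). Summed over the 3 genes, hexokinase RNA was 438 ± 4.2 FPKM in I, 494 ± 13 in M1 and 147 ± 1.6 in Mock. Hk3 made up 63.6% ± 0.59 of it in I, 77.0% ± 0.47 in M1 and 52.9% ± 0.35 in Mock, and Hk2 made up 10.3% ± 0.29 in I, 5.43% ± 0.28 in M1 and 23.4% ± 0.38 in Mock. These shares depend on the summed exon length behind FPKM, which was 8532 bases for Hk1 and 3682 for Hk3. They are therefore not shares of RNA molecules.

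**Figure D2:**
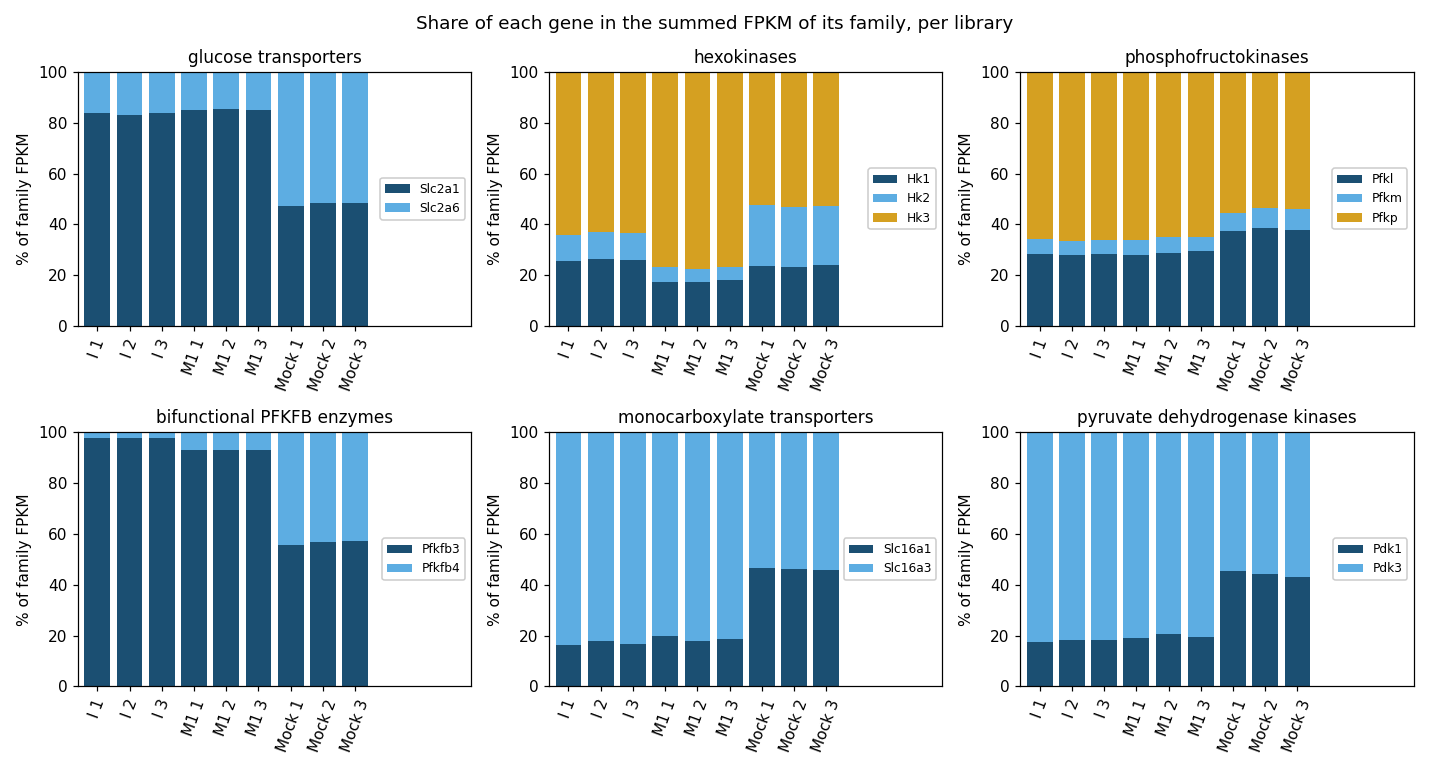
Share of each gene in the summed FPKM of the listed genes of its family, in percent, per library, for 6 families of related genes. Family genes outside the list, such as Slc2a3, are not in the sums. Each share also depends on the summed exon length behind FPKM. Hk3 takes its largest share of the hexokinases in the 3 M1 libraries. Pfkfb3, Slc16a3, Pdk3 and Slc2a1 take larger shares of these sums in I and M1 than in Mock.

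Phosphoglucose isomerase, encoded by Gpi1, makes fructose 6-phosphate and was at 183 ± 3.6 FPKM in I, 192 ± 4.3 in M1 and 135 ± 0.30 in Mock. Its rise in M1 against Mock (0.51) was called. Its difference of I from M1 (−0.07, limma adjusted p = 0.0217) was lost with median-of-ratios scaling (−0.01, limma adjusted p = 0.825). The same held with upper quartile scaling (−0.02, limma adjusted p = 0.4). It was also lost without the intensity trend, and without M1 replicate 2 or 3 or I replicate 2 or 3 (limma adjusted p = 0.0580 to 0.0814). Of the 3 phosphofructokinase genes, Pfkp, the platelet type, was the most abundant per length and rose in both comparisons. It had 83.0, 86.9 and 84.2 FPKM in I, 72.1, 72.8 and 72.5 in M1 and 52.0, 49.6 and 50.4 in Mock. Pfkl, the liver type, was at 36.2 ± 0.45 FPKM in I, 31.9 ± 1.4 in M1 and 35.5 ± 0.35 in Mock, with a log2 fold change of −0.15 in M1 against Mock that became 0.16 with median-of-ratios scaling and 0.05 with upper quartile scaling. Pfkm, the muscle type, was at 7.19 ± 0.30 FPKM in I, 6.64 ± 0.33 in M1 and 7.22 ± 0.58 in Mock and was not called in any of the 3 comparisons with FPKM as deposited. With median-of-ratios scaling Pfkm was called in M1 against Mock (0.17, limma adjusted p = 0.0185), in I against M1 (0.16, limma adjusted p = 0.0311) and in I against Mock (0.33, limma adjusted p = 0.000261).

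In each of the 3 comparisons Pfkfb3 had the largest log2 fold change of the 37 genes. Its product is a bifunctional enzyme that makes fructose 2,6-bisphosphate, the strongest allosteric activator of phosphofructokinase (ENSMUSG00000026773.19, GRCm38 chromosome 2, 11471433 to 11554077, minus strand). Pfkfb3 was at 209.8, 221 and 221 FPKM in I, 64.3, 64.7 and 63.5 in M1 and 6.89, 6.47 and 6.52 in Mock. No 2 groups overlapped or came near each other. The ratio of means was 9.68 in M1 over Mock (log2 fold change 3.10 ± 0.031 SE, limma adjusted p = 2.05e-14), 3.39 in I over M1 (1.74 ± 0.031 SE, limma adjusted p = 2.44e-11) and 32.8 in I over Mock (4.84 ± 0.031 SE, limma adjusted p = 8.02e-16). Its relative Pfkfb4 was at 4.95 ± 0.24 FPKM in I, 4.91 ± 0.033 in M1 and 5.12 ± 0.36 in Mock and was not called in any comparison. With median-of-ratios scaling its difference from Mock became 0.28 in I and 0.21 in M1, and both were called (limma adjusted p = 0.000393 for I and limma adjusted p = 0.00256 for M1). Pfkfb3 made up 97.8% ± 0.087 of the summed FPKM of the pair in I, 92.9% ± 0.043 in M1 and 56.5% ± 0.90 in Mock.

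**Figure D3:**
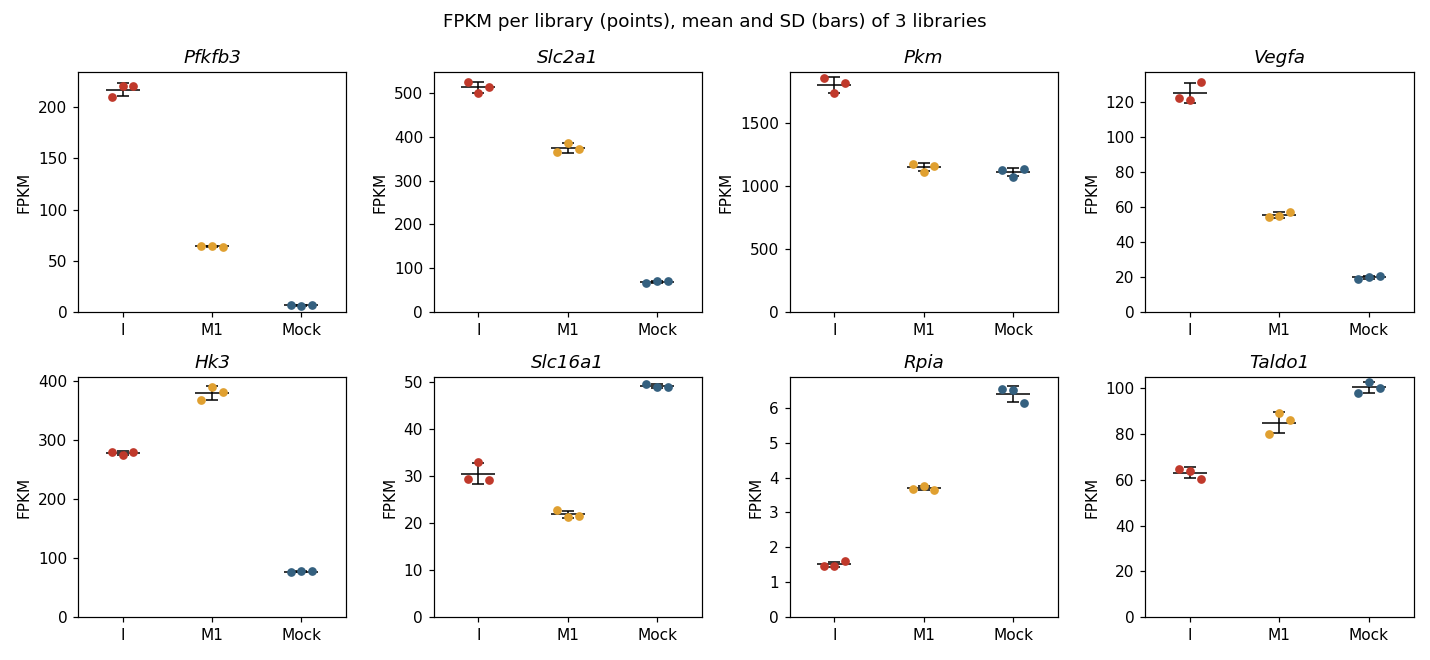
FPKM of 8 genes per library (points), with the mean and SD of 3 libraries (bars), in I, M1 and Mock. Pfkfb3 and Vegfa are highest in I, Hk3 is highest in M1, Slc16a1 is lowest in M1, and Rpia and Taldo1 are lowest in I. For Taldo1 the direction of M1 against Mock is −0.24 with FPKM as deposited and 0.07 with median-of-ratios scaling.

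Promoter windows of 5 genes are shown because they are among the 6 with the smallest p in I against M1, 4 of them higher and Rpia lower. The windows are RefSeq sequences of GRCm38.p6, 250 bases before to 50 after an annotated start, each written 5′ to 3′ on the strand of the gene. Capitals mark the hypoxia response core, searched as ACGTG and GCGTG on both strands, so that CACGT and CACGC mark matches on the other strand. Pfkfb3 has an upstream start (chr2:11553880-11554179, minus strand) and a start within the gene (chr2:11502041-11502340, minus strand). The other windows are those of Slc16a3 (chr11:120948817-120949116, plus strand), Hk2 (chr6:82774405-82774704, minus strand), Slc2a6 (chr2:27027949-27028248, minus strand) and Rpia (chr6:70792126-70792425, minus strand).
Pfkfb3, upstream start: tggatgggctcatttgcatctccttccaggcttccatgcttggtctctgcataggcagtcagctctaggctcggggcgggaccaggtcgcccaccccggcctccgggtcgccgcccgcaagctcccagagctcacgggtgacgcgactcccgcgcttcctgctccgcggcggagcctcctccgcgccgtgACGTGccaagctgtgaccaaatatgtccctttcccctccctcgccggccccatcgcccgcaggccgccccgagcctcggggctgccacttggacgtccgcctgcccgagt
Pfkfb3, start within the gene: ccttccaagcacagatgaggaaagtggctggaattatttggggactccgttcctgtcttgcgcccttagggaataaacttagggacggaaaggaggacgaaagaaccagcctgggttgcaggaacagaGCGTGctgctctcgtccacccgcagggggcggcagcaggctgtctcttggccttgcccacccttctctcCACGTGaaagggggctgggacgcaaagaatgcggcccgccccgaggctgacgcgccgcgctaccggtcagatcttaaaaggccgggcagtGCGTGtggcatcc
Slc16a3: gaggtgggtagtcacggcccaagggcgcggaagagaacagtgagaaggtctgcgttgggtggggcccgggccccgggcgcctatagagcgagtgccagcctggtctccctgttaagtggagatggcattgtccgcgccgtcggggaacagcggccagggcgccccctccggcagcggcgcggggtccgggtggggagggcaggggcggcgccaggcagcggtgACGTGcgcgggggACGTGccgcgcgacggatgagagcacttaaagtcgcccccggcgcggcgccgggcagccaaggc
Hk2: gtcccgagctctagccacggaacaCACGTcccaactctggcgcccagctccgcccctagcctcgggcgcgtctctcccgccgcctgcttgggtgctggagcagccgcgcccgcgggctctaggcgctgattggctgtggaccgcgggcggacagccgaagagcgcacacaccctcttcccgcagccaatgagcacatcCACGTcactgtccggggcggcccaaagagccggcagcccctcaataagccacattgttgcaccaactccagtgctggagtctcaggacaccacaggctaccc
Slc2a6: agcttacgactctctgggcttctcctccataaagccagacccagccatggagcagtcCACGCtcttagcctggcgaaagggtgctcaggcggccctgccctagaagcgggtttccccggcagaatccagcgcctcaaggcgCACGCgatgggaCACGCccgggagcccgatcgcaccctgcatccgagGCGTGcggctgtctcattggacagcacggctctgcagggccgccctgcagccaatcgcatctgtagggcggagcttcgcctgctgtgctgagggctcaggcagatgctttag
Rpia: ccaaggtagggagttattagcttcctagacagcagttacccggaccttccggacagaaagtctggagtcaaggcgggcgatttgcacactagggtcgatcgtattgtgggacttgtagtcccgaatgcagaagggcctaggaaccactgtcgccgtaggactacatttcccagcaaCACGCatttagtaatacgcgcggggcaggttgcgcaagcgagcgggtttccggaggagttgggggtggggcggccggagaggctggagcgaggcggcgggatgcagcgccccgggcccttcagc
The core occurs 1 time in the upstream Pfkfb3 window, at position −60 from the start, and 4 times in the window within the gene, where the 2 matches at −53 and −52 are the same E-box CACGTG read on both strands. Slc16a3 holds 2 matches at −27 and −14, Hk2 2 at −226 and −52, Slc2a6 4 between −193 and −62, and Rpia 1 at −74. Of the 2 windows of Vegfa, also among these 6 genes, 1 holds no match and the other 2. All 38 listed symbols had at least 1 window, and 35 of them (92.1%) held the core, against 68.6% of 8655 tested genes with a window and 46.7% of all 27025 genes with one. A gene counts here if any of its windows holds the core, so a gene with several windows has more chances. Counted by window, 43 of 53 windows of the listed genes (81.1%) held it, and 43.8% of all 32851 windows. Windows of the tested genes were not counted apart. The E-box was in a window of 6 of the 38 (15.8%), 12.2% of tested genes and 8.09% of all genes. A match describes the sequence and says nothing about binding.

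For the aldolases and triose phosphate isomerase the log2 fold changes were larger in M1 against Mock than in I against M1. Aldoa, the main aldolase, was at 869, 884 and 849 FPKM in I, 959, 1006 and 979 in M1 and 599, 626 and 594 in Mock, and Aldoc, the brain-type aldolase, was at 66.3 ± 0.18 in I, 72.3 ± 3.4 in M1 and 26.2 ± 0.89 in Mock. Both rose in M1 against Mock (0.69 and 1.43) and fell in I against M1 (−0.18 and −0.12). The fall of Aldoc was lost with median-of-ratios scaling (−0.05, limma adjusted p = 0.208) and upper quartile scaling (−0.07, limma adjusted p = 0.0963). It was also lost without M1 replicate 2 or 3 (limma adjusted p = 0.0511 to 0.0569). Aldoa has 2 entries in the gene annotation and so no length here, and its differences were not checked with limma-voom. Tpi1, which interconverts the triose phosphates, was at 708, 680.5 and 689 FPKM in I, 658, 667 and 671 in M1 and 312, 336 and 324 in Mock. It rose 2.05-fold in M1 against Mock, and I differed from M1 by 0.06 ± 0.03 SE, which was not called (limma adjusted p = 0.118) but was called with either scaling and with limma-voom (limma adjusted p = 0.00465 to 0.0262).

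Of the enzymes that turn triose phosphate into pyruvate, Pgk1, Eno1 and Gapdh rose at both steps. Pgk1, the phosphoglycerate kinase that yields ATP, was at 1612, 1618 and 1594 FPKM in I, 1407, 1399 and 1378 in M1 and 699, 733 and 718 in Mock. Eno1, the main enolase, was at 538 ± 7.9 FPKM in I, 492 ± 14.3 in M1 and 419.5 ± 14.4 in Mock. Gapdh, a common reference gene in expression assays, was not constant here. It had 86.6, 80.1 and 83.4 FPKM in I, 54.9, 55.9 and 56.1 in M1 and 18.8, 22.2 and 20.2 in Mock, so that I exceeded M1 1.50-fold and M1 exceeded Mock 2.73-fold. Pgam1, a phosphoglycerate mutase, rose in M1 against Mock (0.53) and its I and M1 libraries overlapped (344 ± 8.1 FPKM in I and 340.5 ± 6.8 in M1, log2 fold change 0.01 ± 0.031 SE). Several of these levels are uncertain because near-identical copies can take or share reads. Of all 75-base windows along the principal transcripts in GENCODE vM21, 76.1% of those of Gapdh occur in another annotated gene, 67.5% of those of Pgk1, 65.4% of Eno1, 40.6% of Pgam1, 19.6% of Pkm, 18.5% of Rpe, 16.6% of Pfkp, 14.8% of Gpi1 and 5.14% of Ldha. How the authors' counting treated such reads is not given in the sources used here, and their part in the differences was not tested.

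Pkm, the pyruvate kinase gene, rose in I against M1 (ENSMUSG00000032294.17, GRCm38 chromosome 9, 59656368 to 59679375, plus strand). It was at 1854, 1731 and 1813 FPKM in I, 1175, 1111 and 1160.5 in M1 and 1125, 1071 and 1129 in Mock. The M1 and Mock libraries overlapped, and the I libraries were above both. I exceeded M1 1.57-fold (log2 fold change 0.65 ± 0.036 SE, limma adjusted p = 9.44e-08). M1 differed from Mock by 0.05 ± 0.036 SE, which was not called (limma adjusted p = 0.192). That difference was 0.37 with median-of-ratios scaling and 0.26 with upper quartile scaling, both called, and 0.05 with limma-voom (limma adjusted p = 0.0419). Gene-level FPKM does not separate the splice forms of pyruvate kinase.

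**Figure D4:**
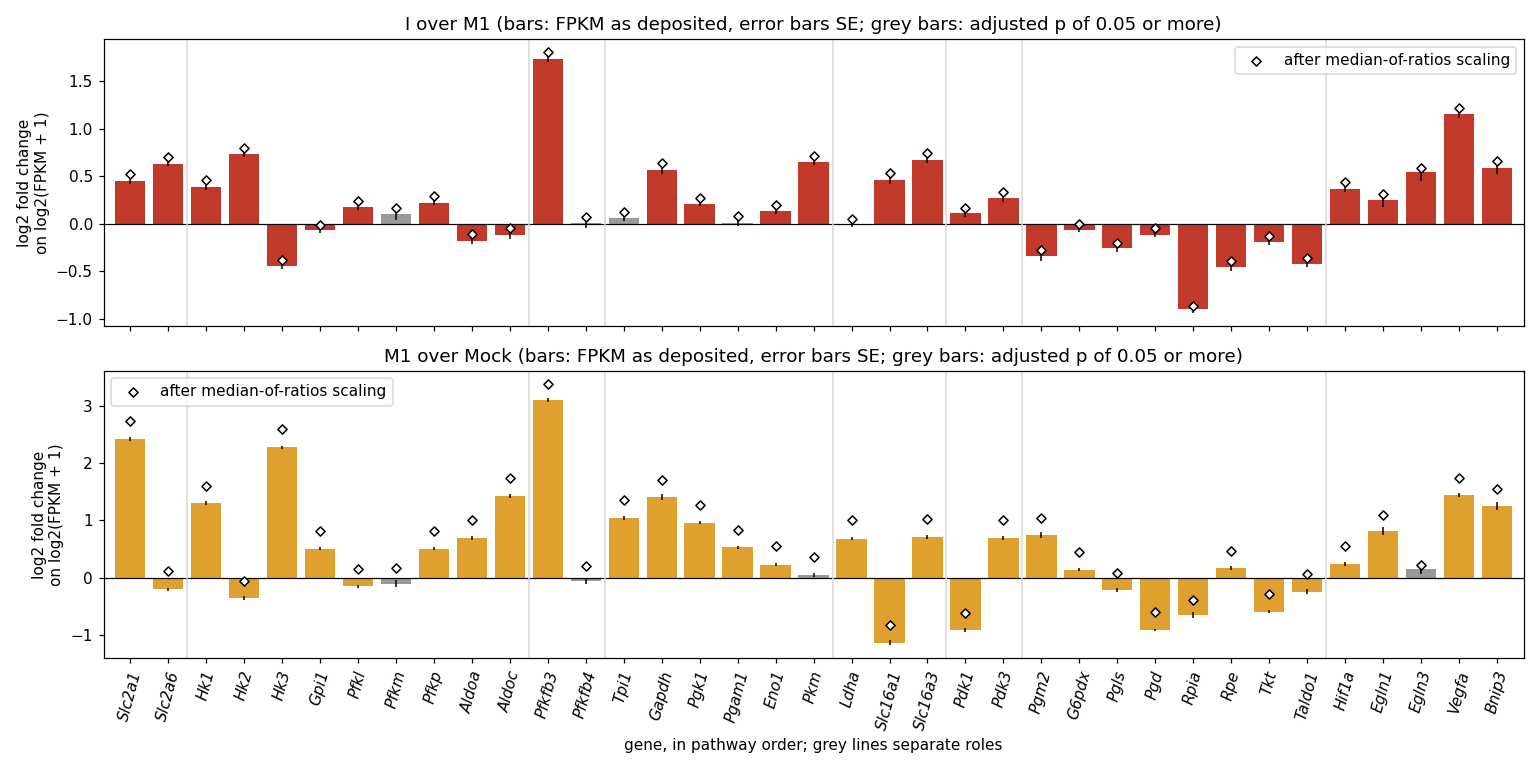
Log2 fold change on log2(FPKM + 1) with its SE for I over M1 (upper panel) and M1 over Mock (lower panel), with FPKM as deposited (bars) and after median-of-ratios scaling (diamonds). Grey bars were not called. In M1 over Mock the direction of Slc2a6, Pfkl, Pfkm, Pfkfb4, Pgls and Taldo1 is negative as deposited and positive after that scaling, as is that of Ldha in I over M1.

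At the lactate end, the dehydrogenase gene Ldha was higher in both polarized groups than in Mock, and its I and M1 libraries overlapped. It was at 971, 941 and 936 FPKM in I, 945, 970.1 and 962 in M1 and 585, 617 and 589.7 in Mock, with a log2 fold change of 0.68 ± 0.028 SE in M1 against Mock and of −0.01 ± 0.028 SE in I against M1 (limma adjusted p = 0.666), which was 0.05 with median-of-ratios scaling and not called. The 2 lactate transporters took different courses. Slc16a3 encodes MCT4, which exports lactate from highly glycolytic cells (ENSMUSG00000025161.16, GRCm38 chromosome 11, 120948480 to 120960868, plus strand), and was at 152, 151 and 146 FPKM in I, 91.0, 97.2 and 93.2 in M1 and 56.9, 56.8 and 57.7 in Mock. It rose 1.64-fold in M1 against Mock and 1.60-fold in I against M1 (0.67 ± 0.029 SE, limma adjusted p = 1.56e-08). Slc16a1 encodes MCT1, which carries lactate in either direction, and was at 29.4, 33.1 and 29.1 FPKM in I, 22.7, 21.3 and 21.6 in M1 and 49.6, 48.9 and 48.9 in Mock. It was lowest in M1, at 0.445 of the Mock mean, and was higher in I than in M1 by 0.46 ± 0.046 SE (limma adjusted p = 7.75e-06). Slc16a3 held 83.1% ± 0.92 of the summed FPKM of the pair in I, 81.1% ± 1.0 in M1 and 53.8% ± 0.33 in Mock.

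The pyruvate dehydrogenase kinases, which keep pyruvate out of the mitochondrial citrate cycle, also moved apart. Pdk3 was at 40.1, 40.9 and 41.3 FPKM in I, 35.5, 31.8 and 33.8 in M1 and 19.7, 21.1 and 20.4 in Mock, and rose in M1 against Mock (0.69) and in I against M1 (0.27, limma adjusted p = 0.000157). Pdk1, a known HIF1 target, fell in M1 against Mock, with 8.18 ± 0.12 FPKM in M1 and 16.2 ± 0.68 in Mock (log2 fold change −0.91 ± 0.04 SE). In I it was at 8.92 ± 0.33 FPKM, higher than M1 by 0.11 (limma adjusted p = 0.0317), and this call was lost without M1 replicate 2 or 3 or I replicate 2 or 3 (limma adjusted p = 0.0663 to 0.0955).

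Along the pentose phosphate pathway, all 8 genes listed were called lower in I than in M1, against 39.3% of all rows tested. With median-of-ratios scaling 6 of the 8 were called lower, against 3631 of 11156 rows, and G6pdx (−0.00) and Pgd (−0.05) were not. In M1 against Mock 3 were higher and 5 lower, where 30.5% of all rows were higher and 55.3% lower. With median-of-ratios scaling 4 were higher and 3 lower, and of all rows 4870 were higher and 4693 lower. The median log2 fold change of the 8 in M1 against Mock was near that of all rows. It was −0.22 against −0.23 as deposited, and 0.08 against 0.02 with that scaling. Among the oxidative steps, G6pdx, the first and rate-limiting enzyme, differed least. It was at 118, 116 and 115 FPKM in I, 124, 123 and 121 in M1 and 112, 111 and 111 in Mock. Its difference of I from M1 (−0.07, limma adjusted p = 0.0150) was also lost with upper quartile scaling (−0.02, limma adjusted p = 0.451). The same held without the intensity trend (limma adjusted p = 0.0621) and without I replicate 3 (limma adjusted p = 0.0556). Pgls, the lactonase, was at 16.4 ± 0.64 FPKM in I, 19.8 ± 0.40 in M1 and 23.1 ± 0.37 in Mock, and its difference of M1 from Mock (−0.21) became 0.09 with median-of-ratios scaling. Pgd, which makes ribulose 5-phosphate and the second NADPH, was at 43.0, 43.4 and 43.3 FPKM in I, 47.1, 47.3 and 46.5 in M1 and 88.4, 90.0 and 88.5 in Mock. It was 0.528 of the Mock mean in M1 (log2 fold change −0.91 ± 0.022 SE, limma adjusted p = 1.34e-11).

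On the log2 scale the 4 largest falls of the 37 genes in I against M1 were those of Rpia (−0.90), Rpe (−0.46), Hk3 (−0.45) and Taldo1 (−0.42), and 3 of these 4 encode non-oxidative pentose phosphate enzymes. Rpia, the ribose 5-phosphate isomerase (ENSMUSG00000053604.5, GRCm38 chromosome 6, 70765720 to 70792232, minus strand), was at 1.47, 1.46 and 1.61 FPKM in I, 3.67, 3.76 and 3.66 in M1 and 6.53, 6.50 and 6.13 in Mock. The groups did not overlap, and the mean was 0.410 of M1 in I (log2 fold change −0.90 ± 0.046 SE, limma adjusted p = 5.58e-08) and 0.578 of Mock in M1 (−0.65 ± 0.046 SE, limma adjusted p = 1.07e-07). Rpe, the epimerase that works on the same substrate, was at 23.5, 25.7 and 25.7 FPKM in I, 35.8, 34.9 and 33.2 in M1 and 30.5, 30.2 and 31.4 in Mock, so it was highest in M1. Its difference of I from Mock (−0.29) became 0.08 and was not called with median-of-ratios scaling (limma adjusted p = 0.0835). Taldo1, the transaldolase, was at 64.6, 63.9 and 60.2 FPKM in I, 79.9, 88.9 and 85.7 in M1 and 97.8, 102 and 100.0 in Mock. I fell by 0.42 ± 0.041 SE against M1 (limma adjusted p = 6.45e-06), whereas the fall in M1 against Mock (−0.24) was 0.07 with median-of-ratios scaling and −0.03 with upper quartile scaling, neither called. Tkt, the transketolase, was at 34.1 ± 1.1 FPKM in I, 39.1 ± 0.96 in M1 and 59.1 ± 1.3 in Mock, and was called lower at each step. Pgm2, which is a phosphopentomutase, was higher in both polarized groups than in Mock, with 22.8 ± 1.6 FPKM in I, 29.2 ± 1.0 in M1 and 17.1 ± 0.87 in Mock. The 7 enzymes other than Pgm2 summed to 299.6 ± 3.5 FPKM in I, 351 ± 5.2 in M1 and 419.6 ± 2.9 in Mock. This sum and those below are of FPKM as deposited and were not formed with another scaling. With median-of-ratios scaling the falls of Pgls and Taldo1 in M1 against Mock became 0.09 and 0.07. The direction of the sum of the 7 in M1 against Mock may therefore depend on the scaling. The 16 glycolytic enzymes listed from hexokinase to Ldha summed to 7696 ± 94 FPKM in I, 6907 ± 46 in M1 and 4429.5 ± 53 in Mock. This sum did not move as a whole. The 9 genes from the hexokinases to the aldolases summed to 1682 ± 16 FPKM in I, 1850 ± 44 in M1 and 1008 ± 18 in Mock. In I against M1 4 of these 9 were called higher, 4 lower and 1 not, with a median of 0.1. Of all rows tested, 24.9% were higher and 39.3% lower there. Aldoa alone was at 867 FPKM in I and 981 in M1, and Hk3 at 278 in I and 380 in M1. The 6 genes from Tpi1 to Pkm summed to 5065 ± 78 in I, 4097 ± 11 in M1 and 2824 ± 28 in Mock. Pkm alone was at 1799 FPKM in I and 1149 in M1.

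Hif1a, Egln1, Vegfa and Bnip3 were called higher in I than in M1, as was Egln3, which the filter favoured, against 24.9% of all rows tested. The same genes but Egln3 were called higher in M1 than in Mock. Hif1a (ENSMUSG00000021109.13, GRCm38 chromosome 12, 73901375 to 73947530, plus strand) was at 64.8, 66.6 and 64.2 FPKM in I, 52.3, 48.6 and 49.6 in M1 and 44.1, 42.7 and 40.3 in Mock. The steps were small, 0.37 ± 0.038 SE for I against M1 and 0.24 ± 0.038 SE for M1 against Mock, with no overlap of the groups. RNA levels do not report the protein, whose stability is regulated as well. Egln1, the main oxygen-sensing prolyl hydroxylase, was at 23.8, 22.8 and 24.2 FPKM in I, 17.6, 19.2 and 22.7 in M1 and 11.1, 11.1 and 10.4 in Mock. M1 replicate 3 came close to the I libraries, and the difference of I from M1 was 0.25 ± 0.073 SE (limma adjusted p = 0.012). Egln3, an inducible prolyl hydroxylase, was near the filter, with 1.17, 1.08 and 0.762 FPKM in I, 0.415, 0.326 and 0.381 in M1 and 0.133, 0.237 and 0.335 in Mock. Its M1 and Mock libraries overlapped, and their difference was not called (0.16, limma adjusted p = 0.113) except with median-of-ratios scaling (limma adjusted p = 0.0349) and limma-voom (limma adjusted p = 0.0376).

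Vegfa, the vascular growth factor and a classical HIF1 target (ENSMUSG00000023951.17, GRCm38 chromosome 17, 46016993 to 46032369, minus strand), was at 122, 121 and 131 FPKM in I, 54.2, 55.0 and 57.2 in M1 and 18.9, 19.9 and 20.7 in Mock. The ratio of means was 2.80 in M1 over Mock and 2.25 in I over M1 (log2 fold change 1.16 ± 0.041 SE, limma adjusted p = 3.65e-09). Bnip3, a mitophagy receptor induced by hypoxia, was at 135, 114 and 135 FPKM in I, 85.2, 85.0 and 82.3 in M1 and 32.1, 35.5 and 37.3 in Mock, and rose at both steps (1.25 in M1 against Mock and 0.59 in I against M1). Its I replicate 2 was lower than the other 2 I libraries but above every M1 library. Of the windows along its principal transcripts, 46.3% occur in another annotated gene, so its level is uncertain.

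Other genes of the same pathways were counted in 5 lists. Of 24 other genes of glycolysis and pyruvate entry tested, 7 were higher and 12 lower in I against M1, and 8 were higher and 14 lower in M1 against Mock. Of all rows tested, 24.9% were higher and 39.3% lower in I against M1, and 30.5% higher and 55.3% lower in M1 against Mock. With median-of-ratios scaling 3396 of the 11156 rows were higher and 3631 lower in I against M1. In M1 against Mock that scaling gave 4870 higher and 4693 lower. The counts of each of the 5 lists are to be read beside the values of the same scaling. With median-of-ratios scaling the glycolysis and pyruvate entry list had 7 higher and 10 lower in I against M1. It had 9 higher and 12 lower in M1 against Mock. Slc2a3, the glucose transporter GLUT3, was at 41.2 ± 0.31 FPKM in I, 23.7 ± 0.41 in M1 and 6.66 ± 0.076 in Mock. Eno2, the neuronal enolase, was at 50.7 ± 1.7 FPKM in I, 42.5 ± 1.5 in M1 and 5.59 ± 0.20 in Mock, and Bsg, the chaperone that MCT1 and MCT4 need at the membrane, was at 608 ± 13 in I, 550.3 ± 17.5 in M1 and 155 ± 0.73 in Mock. All 3 rose at both steps. By contrast Pdha1, a subunit of pyruvate dehydrogenase, and Pdp1, the phosphatase that activates it, fell in I against M1 (−0.38 and −0.51) after a rise in M1 against Mock (0.21 and 0.59). The list of other genes of the pentose phosphate pathway and of nucleotide sugar entry, which includes Pgm1, had 11 genes tested. Of these, 3 were higher and 8 lower in I against M1, and 4 higher and 6 lower in M1 against Mock. With median-of-ratios scaling 3 were higher and 5 lower in I against M1 and 5 higher and 6 lower in M1 against Mock. Prps1 and Prps2, which turn ribose 5-phosphate into the precursor of nucleotides, fell at both steps. Prps1 was at 6.08 ± 0.39 FPKM in I, 9.78 ± 0.23 in M1 and 34.6 ± 0.78 in Mock, and Prps2 at 4.52 ± 0.46 in I, 6.66 ± 0.24 in M1 and 19.1 ± 0.58 in Mock. Pgm1, which links glycogen to glucose 6-phosphate, rose at both steps, with 148 ± 4.3 FPKM in I, 120.0 ± 0.97 in M1 and 39.6 ± 1.1 in Mock.

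Of 24 other HIF1 target genes 15 were higher and 1 lower in I against M1, and 16 were higher and 7 lower in M1 against Mock. With median-of-ratios scaling the counts were 17 higher and 1 lower in I against M1 and 20 higher and 2 lower in M1 against Mock. The median log2 fold change of this list was 0.24 in I against M1, where that of all rows was −0.07. Ndrg1, a stress-response gene induced by hypoxia, was at 153 ± 3.3 FPKM in I, 100.0 ± 1.4 in M1 and 21.1 ± 0.87 in Mock. Pgf, a growth factor related to Vegfa, was at 7.31, 7.05 and 7.32 FPKM in I, 2.56, 2.55 and 2.99 in M1 and 0.0676, 0.119 and 0.0512 in Mock, so it was near 1 fragment per kb in Mock. Ddit4, an inhibitor of mTOR signalling, was at 54.0 ± 1.3 FPKM in I, 31.5 ± 1.4 in M1 and 11.1 ± 0.41 in Mock. Jmjd6, Gys1 and Plod2 also rose at both steps. Of 9 other HIF pathway genes 3 were higher and 3 lower in I against M1, and 4 were higher and 5 lower in M1 against Mock. With median-of-ratios scaling these counts were 4 higher and 2 lower in I against M1 and 5 higher and 1 lower in M1 against Mock. Vhl, which targets hydroxylated HIF for destruction, was at 35.2 ± 0.55 FPKM in I, 23.7 ± 1.5 in M1 and 9.46 ± 0.85 in Mock. Arnt, the partner of Hif1a, was at 16.5 ± 0.38 FPKM in I, 16.1 ± 0.44 in M1 and 10.3 ± 0.40 in Mock, and the difference of I from M1 was not called (0.03, limma adjusted p = 0.489) except with median-of-ratios scaling (0.09, limma adjusted p = 0.0388). Cul2, a scaffold of the same ligase as Vhl, fell in M1 against Mock (−0.98) and was not called in I against M1 (−0.04, limma adjusted p = 0.536, and 0.02 with median-of-ratios scaling). Cited2 and Egln2 were both higher in I than in M1 (0.68 each), and their falls in M1 against Mock (−0.20 and −0.22) became 0.11 and 0.07 with median-of-ratios scaling.

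The list for glycogen handling and glucose sensing, which also holds Myc and Ogdh, had 11 genes tested. Of these, 5 were higher and 5 lower in I against M1, and 6 were higher and 4 lower in M1 against Mock. Median-of-ratios scaling gave 6 higher and 5 lower in I against M1 and 7 higher and 1 lower in M1 against Mock. Txnip, an arrestin that restrains glucose uptake and is induced by glucose, fell at both steps. It was at 44.4, 45.7 and 42.5 FPKM in I, 85.0, 84.0 and 86.8 in M1 and 212, 217 and 210.1 in Mock, with log2 fold changes of −0.93 ± 0.029 SE in I against M1 and −1.31 ± 0.029 SE in M1 against Mock. Myc, a transcription factor of growth that also acts on glycolytic genes, was at 9.28 ± 0.67 FPKM in I, 5.40 ± 0.036 in M1 and 0.289 ± 0.057 in Mock. Gbe1, the glycogen branching enzyme, rose at both steps, with 15.1 ± 0.23 FPKM in I, 10.2 ± 0.30 in M1 and 5.23 ± 0.22 in Mock. Mlx, the partner of the glucose-sensing factors of the Mondo family, was highest in M1, with 49.3 ± 1.1 FPKM in I, 56.5 ± 1.2 in M1 and 26.6 ± 1.0 in Mock. Ogdh, a subunit of the oxoglutarate dehydrogenase of the citrate cycle, fell in I against M1 (−0.49), with 17.4 ± 0.56 FPKM in I, 24.8 ± 0.81 in M1 and 31.5 ± 0.45 in Mock. Its fall in M1 against Mock (−0.33) was no longer called with median-of-ratios scaling (−0.03, limma adjusted p = 0.447).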

How the data were processed

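The authors deposited 1 FPKM value per gene and library. No header names the unit, which was read from the values. The submitters' processing notes name fastp 0.20.1, HISAT2 2.2.1, featureCounts 2.0.1 of the Subread package and the GRCm38 genome. Settings and strand use were not given. Every row is above 0 in each of the 9 libraries, and a gene with a 0 is not analysed here. FPKM times the summed exon length of GENCODE vM21 gave whole fragments in 98.4% to 98.5% of values (within 0.05), which gave the library totals. Gene identifiers and coordinates are those of GENCODE vM21, where Aldoa has 2 entries and so no length here.

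The members and lists were chosen with earlier results of these data known. limma 3.58.1 in R 4.3.3 was fitted to log2(FPKM + 1) of all 9 libraries with a term per group, an intensity trend and Benjamini-Hochberg adjustment over 11156 rows with at least 0.5 FPKM in 3 libraries. The pseudocount of 1 understates the change of low genes. All 37 members are named, and of each further list up to 3 genes with the smallest p in I against M1 and in M1 against Mock. Alternatives were another pseudocount, no filter or a stricter one, median-of-ratios and upper quartile scaling, a replicate block, no trend, limma-voom on whole fragments and leaving out each library.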

Additional observations from a re-analysis of the deposited data

How the results depend on the processing

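Over the 37 genes and 3 comparisons, direction and call were kept in 111 of 111 values with a pseudocount of 0.1, 111 of 111 without a filter, 108 of 108 with the stricter filter, 108 of 111 without the intensity trend, 104 of 108 with limma-voom, 94 of 111 with upper quartile scaling and 91 of 111 with median-of-ratios scaling. The stricter filter left out Egln3, and limma-voom left out Aldoa. Leaving out 1 library kept 979 of 999. With other scalings, genes of the set called lower in M1 against Mock numbered 5 (median-of-ratios) and 6 (upper quartile) where 10 were called as deposited, and rows called higher in I against Mock numbered 4783 with median-of-ratios scaling where 3146 were as deposited. In M1 against Mock, negative log2 fold changes became positive with median-of-ratios scaling for Slc2a6 (0.11), Pfkl (0.16), Pfkm (0.17), Pfkfb4 (0.21), Pgls (0.09) and Taldo1 (0.07), and with upper quartile scaling for Slc2a6 (0.01), Pfkl (0.05), Pfkm (0.08) and Pfkfb4 (0.13). In I against Mock the same held for Pfkm (0.33), Pfkfb4 (0.28) and Rpe (0.08) with median-of-ratios scaling and for Pfkm (0.23) and Pfkfb4 (0.18) with upper quartile scaling, and for Pfkm (0.01) with limma-voom. In I against M1 it held for Ldha with median-of-ratios (0.05) and upper quartile scaling (0.04), neither called. These scalings differ from the deposited values by 1 factor per library.

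With 1 library left out, the genes of the set called in I against M1 numbered 29 to 32 (19 to 20 higher and 10 to 12 lower), in I against Mock 33 to 34 (25 to 26 higher, 8 lower) and in M1 against Mock 33 to 34 (23 higher, 10 to 11 lower). Over all rows the calls were 6686 to 7075 in I against M1 (2539 to 2740 higher, 4121 to 4335 lower), 9512 to 9697 in I against Mock (3076 to 3164 higher, 6418 to 6534 lower) and 9362 to 9587 in M1 against Mock (3289 to 3419 higher, 6044 to 6174 lower). Without Mock replicate 1, Pfkm was called in M1 against Mock (limma adjusted p = 0.0261), and without I replicate 1 G6pdx was not called in I against Mock (limma adjusted p = 0.0552). Among values not called, the sign changed with 1 library left out for Pfkfb4 (−0.02 to 0.03) and Pgam1 (−0.00 to 0.03) in I against M1 and for Pfkm (−0.05 to 0.05) and Pfkfb4 (−0.07 to 0.01) in I against Mock.

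The labels state no pairing of libraries by replicate number. Deviations of same-numbered libraries from their group means correlated at −0.115 to 0.0474. That shows no shared replicate effect, but it cannot tell whether such libraries were prepared together. A model with the replicate block called 7032 rows in I against M1, 9663 in I against Mock and 9548 in M1 against Mock, and kept every call of the 37 genes. Depth limits Egln3 most, at under 1.2 FPKM in each library.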
